A study of Mus musculus with 6 samples.

Results

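Krt42, Pmch and Fgg are 3 genes of the mouse incisor, of 16593 genes with a named probe on the array, and each was read by 1 probe. They were chosen by their values at the maturation stage, where they had the largest downward differences in Med1 KO tissue among genes detected in both genotypes. Krt42 encodes a type I keratin, one of the acidic partners of epithelial intermediate filaments, and is known in the mouse from the nail. Pmch encodes the precursor of melanin-concentrating hormone, a neuropeptide of the lateral hypothalamus that acts on feeding and sleep. Fgg encodes the gamma chain of fibrinogen, which the liver secretes together with the alpha and beta chains and which thrombin turns into fibrin.

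Med1 is a subunit of the Mediator coactivator complex, which links DNA-bound factors such as nuclear receptors to RNA polymerase II. The groups compared were Med1 KO mice, with both Med1 alleles floxed (MED1 fl/fl) and a Cre transgene driven by the keratin 14 promoter, and CON littermates, called WT in some labels, with the same floxed alleles and no Cre. All mice were on a C57BL/6 background and 4 wk old, and the dental tissue was micro-dissected from lower incisors in 3 regions, namely the cervical loop (CL) and the enamel zones of secretion (Sec) and maturation (Mat). The mouse incisor grows throughout life, so these stages lie along a single tooth. The CL holds the dental epithelial stem cells, Sec ameloblasts lay down enamel matrix, and Mat ameloblasts remove protein and move ions while the enamel hardens. Each of the 6 arrays held the combined tissue of 3 mice of a genotype and stage, so no spread between animals can be given and no p-value exists for a stage. Cre is active only in epithelium that expresses Krt14, and the dissected tissue also holds other cells. In such bulk tissue fewer cells of a type and less RNA per cell cannot be told apart.

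Values are log2 intensities of a bead array after background correction and quantile normalization, and differences between them are log2 differences, KO minus CON unless said otherwise. A probe was called detected at a detection p-value under 0.01 against the negative-control beads of its array. A gene was counted as lower or higher in KO when the fold was at least 1.5 and the probe was detected on the brighter array, and where the dimmer array did not detect it the difference is a bound. Between 8355 genes (CON Mat) and 8955 genes (KO Mat) were detected, and the lowest detected value of the 6 arrays lay between 5.83 and 6.19. Med1 itself had 9.04 in KO and 9.58 in CON at CL, 8.72 in KO and 9.35 in CON at Sec and 8.66 in KO and 9.15 in CON at Mat. Where its probe lies relative to the floxed exons was not determined. Amelx, the main enamel matrix protein and a marker of ameloblasts, was at 15.01 in KO and 15.17 in CON at Mat. The highest value of each array was 15.32. Of 6 secretory ameloblast markers detected at Mat, 2 were lower in KO, Fam20a (-1.09) and Mmp20 (-0.71), and 4 were within 1.5-fold. At Sec 2 of 6 were higher, Enam (1.05) and Mmp20 (0.74). Of 12 hair shaft keratins listed, 6 were matched to a named probe, and these 6 were higher in KO at Mat, where CON detected none of them. Of all genes 18.4% were lower and 12.6% higher at Mat, and 11.7% higher at Sec.

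The start regions of the 3 genes are shown so that the 5 motifs can be read in their context. Each run holds the 250 bases before the RefSeq start in GRCm38.p6 and the 50 bases that begin with the start base, 5′ to 3′ on the strand of the gene. The runs lie at chr11:100269902-100270201 (minus strand) for Krt42, chr10:88090822-88091121 (plus strand) for Pmch and chr3:83007474-83007773 (plus strand) for Fgg. Capitals mark matches to these motifs, which were searched on both strands.
Krt42: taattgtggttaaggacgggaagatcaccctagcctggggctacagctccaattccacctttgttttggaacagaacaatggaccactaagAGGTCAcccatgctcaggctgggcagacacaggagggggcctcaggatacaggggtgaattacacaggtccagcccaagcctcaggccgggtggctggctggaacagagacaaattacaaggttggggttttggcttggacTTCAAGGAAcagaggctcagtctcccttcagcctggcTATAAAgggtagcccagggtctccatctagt
Pmch: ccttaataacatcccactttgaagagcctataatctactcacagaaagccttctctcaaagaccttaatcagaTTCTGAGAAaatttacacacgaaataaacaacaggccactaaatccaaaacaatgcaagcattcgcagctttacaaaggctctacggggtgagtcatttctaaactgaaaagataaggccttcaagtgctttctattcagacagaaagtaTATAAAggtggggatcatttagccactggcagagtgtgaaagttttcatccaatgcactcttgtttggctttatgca
Fgg: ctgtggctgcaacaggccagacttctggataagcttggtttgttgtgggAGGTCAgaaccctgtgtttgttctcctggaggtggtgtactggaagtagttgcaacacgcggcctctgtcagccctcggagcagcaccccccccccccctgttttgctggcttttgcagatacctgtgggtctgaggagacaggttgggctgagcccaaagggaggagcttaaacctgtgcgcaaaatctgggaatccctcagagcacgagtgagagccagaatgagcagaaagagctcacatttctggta
The TATA box (TATAAA) began 27 bases before the start base in Pmch and 19 bases after it in Krt42, and 13.6% of all 32851 windows of this length held one. The nuclear receptor half-site (AGGTCA, 16.3% of windows) began at -159 in Krt42 and -201 in Fgg. The STAT motif (TTCNNNGAA, 8.30% of windows) began at -18 in Krt42 and -177 in Pmch. The C/EBP motif (TTGCNNAA, 10.8% of windows) and the bicoid-type homeodomain motif (TAATCC, 7.06% of windows) had no match in these windows. No motif matched in all 3 windows. The GC content was 54% for Krt42, 39% for Pmch and 55.3% for Fgg, with a median of 52.7% over all windows.

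Krt42 was bright on the CON Mat array and lay within 1.94 of the lowest detected value on each of the other 5. At CL it had 6.68 in KO and 6.48 in CON, with raw intensities of 244.9 and 212.6. At Sec it had 6.42 in KO and 7.59 in CON (223.5 and 298.5). At Mat it had 7.77 in KO and 12.41 in CON (348.2 and 5471.7). The CON Mat array thus stood far above the other 5, and KO Mat came second. The log2 difference (KO minus CON) was 0.20 at CL, -1.17 at Sec (2.25-fold) and -4.65 at Mat (25.1-fold). Without background correction the Sec difference was -0.59, at the edge of the 1.5-fold limit.

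Pmch had the largest difference of the 3 genes at Sec. At CL it had 7.83 in KO and 7.34 in CON (raw intensities 383.1 and 285.4), and at Sec 8.06 in KO and 10.79 in CON (414.9 and 1745.2). At Mat it had 7.56 in KO and 11.85 in CON (319.5 and 3690.1). Both late CON arrays were high, and the 3 KO arrays lay within 0.50 of each other, close to CON CL. The log2 difference was 0.49 at CL, -2.72 at Sec (6.60-fold) and -4.28 at Mat (19.5-fold).

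Fgg was also brightest on the CON Mat array, while its CON arrays at CL and Sec were alike. At CL it had 7.58 in KO and 7.74 in CON (raw intensities 344.2 and 339.8), at Sec 6.58 in KO and 7.83 in CON (234.9 and 329.8), and at Mat 6.43 in KO and 10.69 in CON (213.2 and 1677.6). KO Sec and KO Mat were the lowest arrays for this gene, 0.56 and 0.60 above the floor of their array. The log2 difference was -0.16 at CL, -1.25 at Sec (2.37-fold) and -4.26 at Mat (19.1-fold). Without background correction its Sec difference was -0.67.

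**Figure D1:**
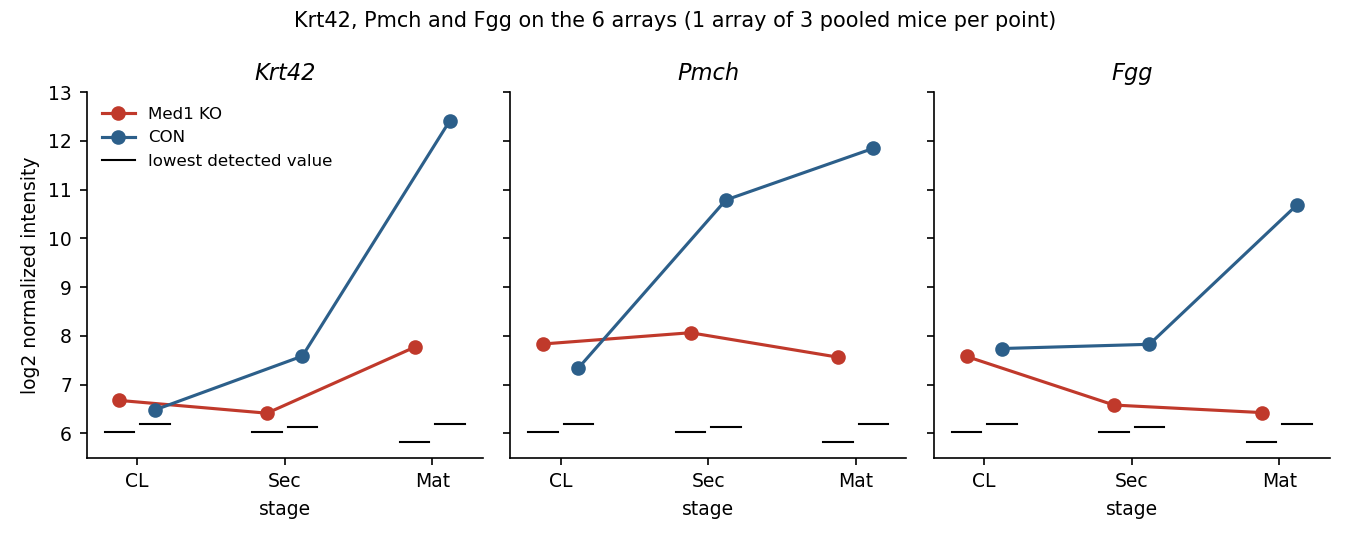
Log2 normalized intensity of Krt42, Pmch and Fgg (y axis) at the CL, Sec and Mat stages (x axis) in Med1 KO (red) and CON (blue), with 1 array of 3 pooled mice per point and black bars at the lowest detected value of each array. CON reaches 12.41, 11.85 and 10.69 at Mat, where KO stays at 7.77, 7.56 and 6.43.

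All 3 genes were thus lower in KO at Mat, as the rule required, where 18.4% of the 9218 genes considered were lower and 12.6% higher. At Sec, whose arrays the rule did not use, all 3 were lower as well, against 15.2% of 9073 genes lower and 11.7% higher. At CL none of the 3 reached 1.5-fold, where 2% of 8794 genes were lower and 1.81% higher. Over all genes considered the median log2 difference was -0.02 at CL, -0.10 at Sec and -0.14 at Mat. Ranked by the downward difference at Sec among 8024 genes detected in both genotypes, Pmch was number 3, Fgg 214 and Krt42 263. The 2 genes ahead of Pmch were Ifit3, an interferon-induced gene named here after its value was seen (-3.08), and Tac1, the substance P precursor (-2.88).

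The genotype was tested over the 4 CL and Sec arrays in limma with stage as a term, the only fit that leaves out the arrays used for the choice. It called none of 8690 genes (0%) at an adjusted p under 0.05, with a smallest adjusted p of 0.149, while 304 genes were lower and 219 higher at an unadjusted p under 0.05. The log2 estimate was -0.49 for Krt42 (SE 0.37, limma adjusted p = 0.789), -1.11 for Pmch (SE 0.76, limma adjusted p = 0.770) and -0.70 for Fgg (SE 0.32, limma adjusted p = 0.743). Before moderation the fit has 1 residual degree of freedom, and a small p in it means that CL and Sec gave like differences, not that animals did.

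The course along the tooth differed between the 3 genes and between the genotypes. Krt42 in CON stood 1.10 higher at Sec than at CL and 4.83 higher at Mat than at Sec (28.4-fold), so most of its difference lay in the last step. Pmch in CON was 3.45 higher at Sec than at CL (10.9-fold) and 1.06 higher at Mat than at Sec, so most of its difference lay in the first step. Fgg in CON differed by 0.09 between Sec and CL and by 2.86 between Mat and Sec (7.25-fold). Between Mat and CL the CON arrays differed by 5.93 for Krt42 (61.1-fold), 4.51 for Pmch (22.7-fold) and 2.94 for Fgg. In CON 6.58% of genes were higher at Sec than at CL, 13.3% higher at Mat than at Sec and 17.1% higher at Mat than at CL. The CON Mat array is the one that chose the genes, so its height is part of the choice.

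In KO the largest of these steps was that of Krt42 between Sec and Mat. Krt42 in KO was 0.26 lower at Sec than at CL and 1.35 higher at Mat than at Sec (2.55-fold), where 7.54% of genes were higher. Pmch in KO differed by 0.23 between Sec and CL and by -0.50 between Mat and Sec. Fgg in KO was 1.0 lower at Sec than at CL, as were 19.3% of genes by at least 1.5-fold, and differed by -0.15 between Mat and Sec. Krt42 was therefore the only one of the 3 whose KO tissue was brighter at Mat than at Sec by more than 1.5-fold.

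The values just inside and just outside the choice were close. Fgg, the last of the 3, had -4.26 at Mat, and Gsta4, a glutathione transferase that clears lipid peroxidation products, came next with -4.19. The 6 that followed were Gal, the galanin precursor (-3.97), Spink8 (-3.46), D930020B18Rik (-3.21), the glutathione transferase Gsta3 (-3.21), the heparan sulfate sulfotransferase Hs3st3a1 (-3.02) and the cytokine Il11 (-3.00). At Sec these 7 genes had log2 differences of -2.36 (Gsta4), -2.04 (Gal), -1.57 (Spink8), -0.59 (D930020B18Rik), -1.32 (Gsta3), -1.65 (Hs3st3a1) and -0.31 (Il11). Pmch thus had the largest downward difference at Sec among these 10 genes. Only 4 genes detected in both genotypes were at least 16-fold lower at Mat, namely Krt42, Pmch, Fgg and Gsta4, and none was at Sec or CL. With the deposited normalized values Pmch (-3.59) and Fgg (-3.06) did not reach 16-fold. Where genes detected in CON alone are counted with their bounds, D630023F18Rik, named after its value was seen, comes second at Mat (at least 4.57 lower), which puts Pmch at 3 and Fgg at 4 of 9218.

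**Figure D2:**
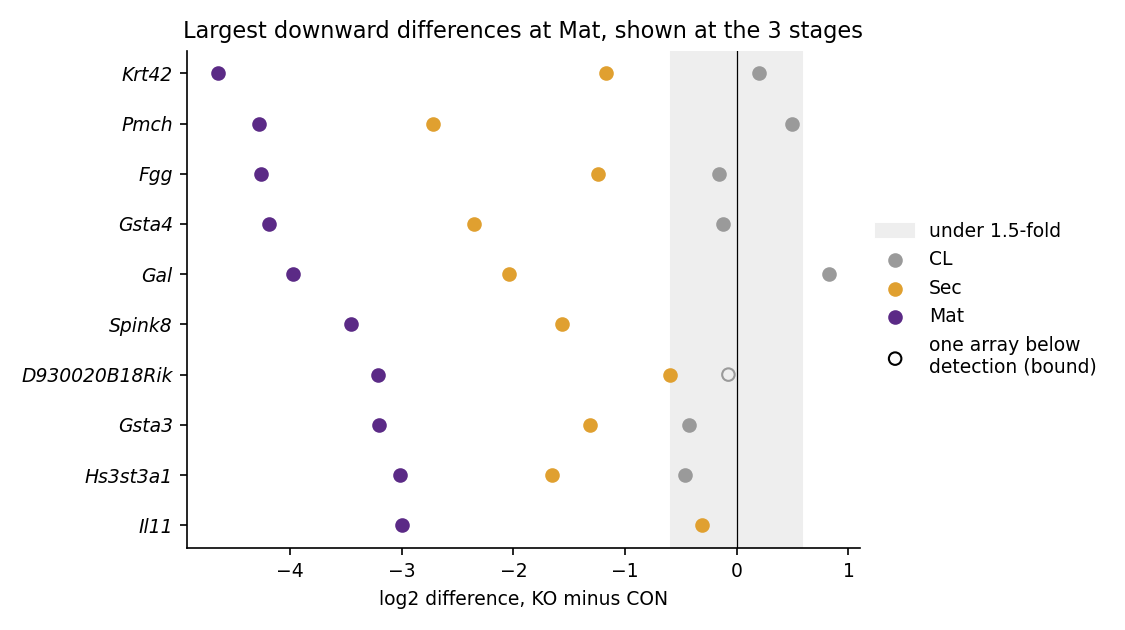
Log2 difference, KO minus CON (x axis), at CL (grey), Sec (orange) and Mat (purple) for the 10 genes with the largest downward difference at Mat among genes detected in both genotypes (rows), with open circles for bounds and the grey band under 1.5-fold. Pmch lies at -2.72 at Sec and Krt42 and Fgg at -1.17 and -1.25, while the 3 genes lie between -0.16 and 0.49 at CL.

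Krt42 differed in direction from most of the detected type I keratins that passed 1.5-fold. Of 14 type I keratins of soft epithelia on the array, 10 were detected at Mat, of which 3 were lower in KO, 5 higher and 2 within 1.5-fold, with a median difference of 0.49 against -0.14 for all genes, of which 18.4% were lower and 12.6% higher. The 3 lower ones were Krt42, Krt16 (-1.30), a keratin of stressed and oral epithelium, and Krt24, which was detected in CON alone (at least 0.78 lower). Krt10, the keratin of suprabasal epidermis, had 14.04 in KO and 10.37 in CON at Mat. Krt15, a keratin of basal cells, had 12.22 in KO and 8.42 in CON, and Krt23 had 13.25 in KO against a value below detection in CON, at least 7.06 higher. Krt13, a keratin of oral mucosa, was higher by at least 3.80 at CL, with 9.98 in KO and no detection in CON, and had 7.53 in KO and 6.86 in CON at Mat. Krt14, whose promoter drives the Cre, had 15.08 in KO and 15.20 in CON, and Krt18, a keratin of simple epithelia, had 6.78 in KO and 6.47 in CON. At Sec 2 of 10 were lower, Krt42 and Krt18 (-0.71), and 6 were higher, where 15.2% of all genes were lower and 11.7% higher. Krt9, Krt12, Krt19 and Krt20 were detected on no array. Among the type II keratins, the basic partners, 2 of 12 detected at Mat were lower, Krt8 (-1.05) and Krt76 (at least 1.77 lower), and 5 were higher, with a median of 0.20. The share lower among type II keratins was near the 18.4% of all genes.

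Krt42 lies at 100262882 to 100269951 of chromosome 11, with type I keratins as its nearest genes with a probe on only a single side. Its neighbours differed in direction from it and from each other. Krt17, a keratin of hair follicle and wound epithelium, ends 1.85 kb away and was 1.14 higher in KO at Sec and 1.73 higher at Mat. Krt16, 14.0 kb away, was higher by at least 2.74 at CL and by at least 3.07 in Sec tissue, with KO at 8.93 and 9.20 and no detection in CON, and 1.30 lower at Mat, with 11.30 in CON. Krt14 was within 1.5-fold at the 3 stages. On the other side Gast, the gastrin gene, was not detected, and Hap1, which encodes huntingtin-associated protein, was 1.05 higher at CL, 0.75 higher at Sec and 1.0 lower at Mat. Jup, which encodes the junction protein plakoglobin, was detected in KO Mat alone, at 7.31, and was higher there by at least 1.12. Type I keratins are close in sequence, and whether the Krt42 probe also binds a relative was not tested, since probe sequences were not used here.

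Pmch was lower together with some other neuropeptide precursors and apart from others. Of 30 precursors on the array, 12 were detected anywhere. At Sec 6 of 10 were lower in KO, Pmch among them, 1 was higher and 3 were within 1.5-fold, with a median of -1.65 against -0.10 for all genes, of which 15.2% were lower. At Mat 4 of 8 were lower, 1 higher and 3 within, with a median of -0.85, where 18.4% of all genes were lower. At CL none of 9 was lower and 2 were higher, Gal and Tac1, where 2% of all genes were lower and 1.81% higher. With the deposited normalized intensities Gal had 299.5 in KO and 224.3 in CON at CL, under 1.5-fold. Gal had 7.43 in KO and 6.61 in CON at CL, 6.37 in KO and 8.41 in CON at Sec, and 5.91 in KO and 9.88 in CON at Mat. Cck, the cholecystokinin precursor, was detected on no KO array, and CON had 8.65 at Sec and 9.67 at Mat, with bounds on the difference of -2.63 at Sec and -3.84 at Mat. The neurotensin precursor Nts differed by -1.51 at Sec and -1.26 at Mat. Npy, the neuropeptide Y precursor, was the 1 precursor higher at both stages, with bounds of 0.86 at Sec and 1.63 at Mat. Tac1 took another course, with 6.58 in KO and 9.46 in CON at Sec and no detection in CON at Mat.

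Most of the measured genes that turn such precursors into stored peptides were below detection. Of 16 listed genes of prohormone processing and secretory granules 12 were on the array, and the rest were not measured. Of the 12, 8 were detected nowhere, among them the convertase Pcsk1 and the granule proteins Chga, Chgb and Scg2. Of all 16593 genes a single array detected between 8355 and 8955, and 9470 were detected on KO CL, KO Mat or both. Genes detected on any array were not counted over all genes, so no matching share for detection nowhere can be given. Pam, which amidates peptides, was 1.41 lower in KO at Mat, and Qpct, which forms pyroglutamate, was 0.98 higher. The broadly expressed convertases Furin and Pcsk7 were within 1.5-fold. Mchr1, the receptor of melanin-concentrating hormone, was detected on no array. Pmch lies at 88091072 to 88092374 of chromosome 10, overlapped by Parpbp, which was not analysed here. Of its neighbours the pseudogene Tyms-ps, the nearest before it with a probe, was 1.06 higher in KO at Mat. Igf1, the insulin-like growth factor, differed by -0.63 at Sec and -1.03 at Mat and Dram1 by -0.85 and -1.30, while Nup37 and Washc3 were within 1.5-fold at the 3 stages and Stab2 was detected on no array.

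**Figure D3:**
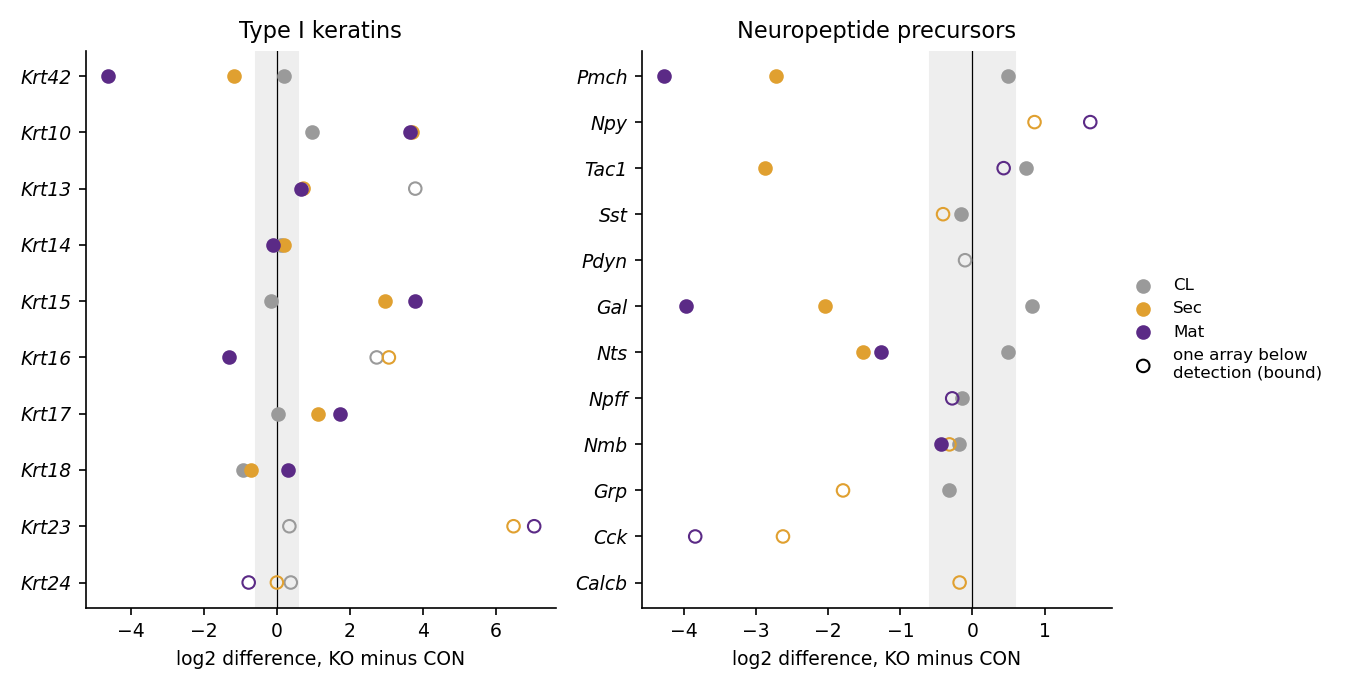
Log2 difference, KO minus CON (x axis), at CL (grey), Sec (orange) and Mat (purple) for the type I keratins (left) and the neuropeptide precursors (right) detected at any stage, with open circles for bounds and the grey band under 1.5-fold. Krt42 lies at -4.65 where Krt10, Krt15, Krt17 and Krt23 lie above 1.5, and Pmch, Gal and Cck lie together at -3.84 to -4.28 at Mat.

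Fgg stood alone among the fibrinogen chains. Fga and Fgb, the genes of the alpha and beta chains, start 11.1 kb and 27.2 kb beyond Fgg (83007724 to 83015056 of chromosome 3), and neither was detected on any array. On the other side Lrat, the lecithin retinol acyltransferase that esterifies vitamin A, was detected in CON Mat alone and was at least 2.74 lower in KO. Beyond Lrat, Npy2r and Map9 were detected on no array. Plrg1, a splicing factor next to Fgb, was within 1.5-fold at the 3 stages. Of 23 listed plasma protein genes of hepatocytes 20 were on the array, and 15 of these were detected nowhere, including Alb, Ttr and Ahsg. A single array detected between 8355 and 8955 of all 16593 genes, but detection on any array was not counted over all genes. The share of plasma protein genes detected nowhere therefore has no matching share here. At Mat Fetub and Kng1 each differed by -1.69, and Serpina1b was higher by at least 0.65.

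Genes that act with fibrinogen differed in both directions at Mat. Fgg was chosen by its Mat difference, so smaller differences of other genes there are part of the choice. Of 13 coagulation and fibrinolysis genes detected at Mat, 4 were lower, 1 higher and 8 within 1.5-fold (median -0.25), where 18.4% of all genes were lower and 12.6% higher. Without background correction 2 of these were lower. At Sec 7 of 13 were lower and 1 higher (median -0.59), where 15.2% of all genes were lower and 11.7% higher. Pros1, the anticoagulant protein S, differed by -0.94 at Sec and -0.99 at Mat, and von Willebrand factor, Vwf, by -0.96 and -0.89. F13a1, the A subunit of the factor that crosslinks fibrin, went the other way and was 2.06 higher in KO at Mat. Among 9 receptors and crosslinkers of fibrinogen detected at Mat, the integrin chains Itga5 (-0.99) and Itgb1 (-0.98), the endothelial cadherin Cdh5 (-0.87) and the transglutaminase Tgm2 (-0.65) were lower. In the liver the fibrinogen genes answer to IL-6 family cytokines through Stat3. Of 16 such signalling and acute phase genes detected at Mat, 7 were lower and 4 higher, where 18.4% of all genes were lower and 12.6% higher. The lower ones included Il11 at -3.00, Timp1 at -1.57, Socs3 at -1.26, Stat3 at -1.10 and the receptor chains Il6st at -1.01 and Osmr at -1.0. The acute phase genes Orm1 (at least 3.02) and Hp (2.47) were higher, as was Cebpb (1.10). Il6 itself was detected on no array.

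Markers of several cell types differed between the genotypes beside the 3 genes, and their part in the differences of Krt42, Pmch and Fgg was not tested. At Mat, where 18.4% of all genes were lower, 9 of 10 detected maturation ameloblast markers were lower and none higher (median -1.60), and the log2 of their summed level was 14.99 in KO and 16.30 in CON. The exception was the anion exchanger Slc4a2 (-0.52), and the lower ones included the transferrin receptor Tfrc (-1.79), the anion exchanger Slc26a7 (-2.74) and the phosphate transporter Slc34a2 (-2.48). At Sec, where 15.2% of all genes were lower, 3 of 9 were lower, with sums of 14.99 in KO and 15.36 in CON. Of the 11 neuron markers 4 were detected at Mat, and 3 of them, Syn1, Rbfox3 and Stmn2, were lower, but 0 without background correction. The fourth, the microtubule protein gene Map2, had 9.66 in KO and 8.08 in CON, and the sums were 10.30 in KO and 9.90 in CON, while Tubb3, Snap25, Syt1, Nefl, Nefm and Prph were detected nowhere. Endothelial markers were lower for 7 of 8 at Mat, with sums of 13.22 in KO and 14.07 in CON, but for 4 without background correction, and for 3 of 8 at Sec. Macrophage markers were lower for 6 of 7 at Sec (median -0.77), with sums of 12.21 in KO and 13.02 in CON, and for 1 of 7 at Mat, with sums of 12.29 in KO and 12.42 in CON. Platelet markers had sums of 9.51 in KO and 9.19 in CON at Mat, and of 6 detected 1 was lower, 1 higher and 4 within 1.5-fold, with 0 lower and 0 higher without background correction. Skeletal muscle markers were higher for 8 of 9 at Sec, where 11.7% of all genes were higher. At Mat 4 of 9 were higher, with Mb alone lower, where 12.6% of all genes were higher. The muscle sums were 15.59 in KO and 14.97 in CON at Mat, against 15.05 in KO and 12.58 in CON at Sec. Hair shaft keratins had sums of 16.51 in KO and 7.63 in CON at Mat. CON Mat detected none of them, so the CON sum is made of values below detection.

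The genes whose course over the 6 arrays was most like that of each gene were ranked by Pearson's r among 988 genes detected on at least 3 arrays with a range of at least 2 on the log2 scale. These values describe 6 arrays that also chose the genes, and no p is given. For Krt42 they were the LIM-domain factor Lmo2 (r = 0.992), Nxpe2 (0.991), myoglobin, Mb (0.986), Stac2 (0.981) and Rgs10 (0.981). Mb had 9.78 in KO and 12.27 in CON at Mat, whereas the other muscle genes Acta1 and Ckm had 14.15 and 11.29 in KO and 13.62 and 10.73 in CON. For Pmch they were Slc26a7 (0.977), Cep126 (0.973), the chemokine Cx3cl1 (0.970), Fam13a (0.963) and Crim1 (0.955). Slc26a7 had 7.86 in KO and 9.21 in CON at Sec and 7.15 in KO and 9.89 in CON at Mat. For Fgg they were the lysosomal acid lipase Lipa (0.992), Zfp52 (0.986), the aldose reductase relative Akr1b8 (0.980), pendrin, Slc26a4 (0.977), and Serpinb6b (0.975). Lipa had 6.07 in KO and 8.50 in CON at Mat. With r of at least 0.95 there were 21 genes for Krt42, 6 for Pmch and 10 for Fgg. The 15 listed genes had their highest value in CON Mat, and their differences between KO and CON at Mat were smaller than that of the gene they resemble. Both follow largely from the choice of the 3 genes at Mat and from the ranking by r, so neither is a separate result.

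**Figure D4:**
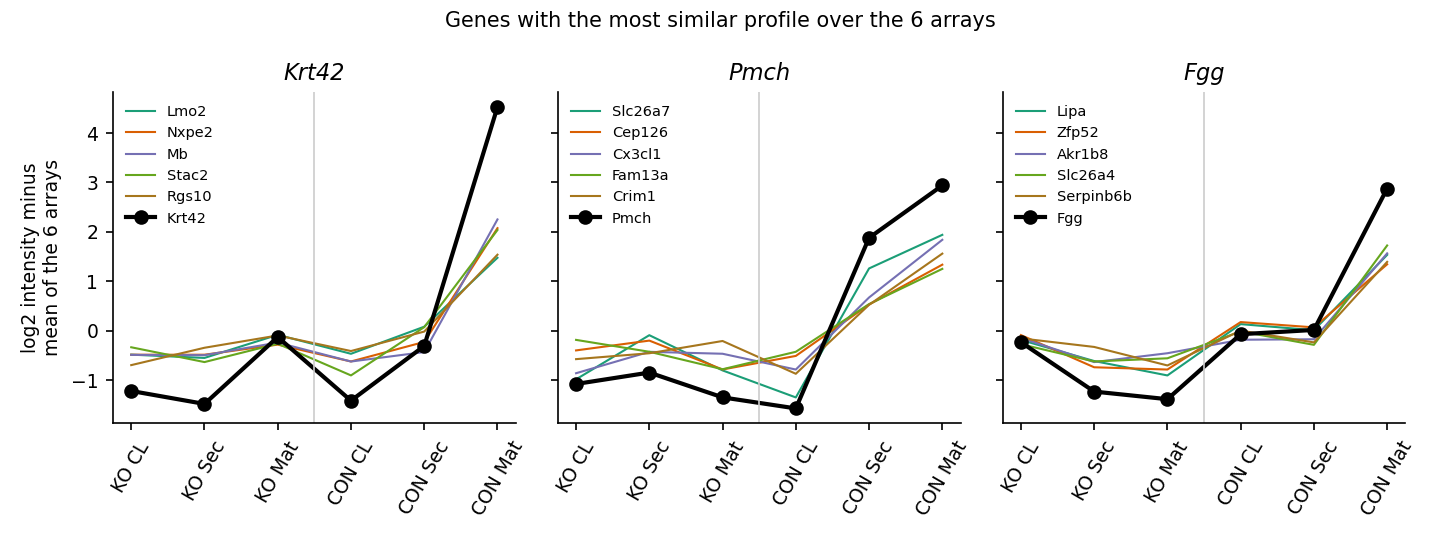
Log2 intensity minus the mean of the 6 arrays (y axis) on each array (x axis, KO then CON) for Krt42, Pmch and Fgg (black) and the 5 genes with the highest Pearson's r to each (colours). All lines peak at CON Mat, and Pmch and Slc26a7 are already high at CON Sec.

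Between the 3 genes the likeness rested on the CON Mat array. Pearson's r over the 6 arrays was 0.81 for Krt42 and Pmch, 0.88 for Krt42 and Fgg and 0.80 for Pmch and Fgg. Without CON Mat the same pairs had 0.47, -0.15 and 0.42 over 5 arrays. Pmch and Gal had 0.93 over the 6 arrays and 0.83 without CON Mat, and Fgg and Gal had nearly the same, 0.92 and 0.78. Krt42 and Gal had 0.80 and 0.17. Pmch and Cck had 0.98 and 0.96, although Cck lay below detection on 4 of the 6 arrays. Without CON Mat, CON Sec was the only array that detected Cck.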

How the data were processed

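RNA of micro-dissected incisor tissue was labelled and hybridized to Illumina mouse bead arrays, and the authors extracted signals in GenomeStudio, whose version is not given in the sources used here. The deposited table holds, for each of 25697 probes, a linear intensity, neither scaled nor background-subtracted, and a detection p-value, and a second deposited table holds the authors' normalized intensity on the linear scale. Here neqc of limma 3.58.1 in R 4.3.3 corrected the background, quantile-normalized the arrays and added an offset of 16 before log2. Of the probes, 23978 carried a gene symbol, and a gene took its brightest probe. Where a single array of a pair detected a probe, the other side took the higher of its value and the lowest detected value of its array. A list's summed level is the log2 of the sum of its probes' linear normalized values, detected or not. The number of arrays limits the precision. The fit used genes detected on at least 2 of the 4 CL and Sec arrays with Benjamini-Hochberg adjustment.

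The members and the gene lists were chosen with earlier results of these data known. Named genes were the 3 members, the 7 next downward differences at Mat, the 5 most similar profiles and the 3 nearest genes with a probe on each side of each member, up to 5 detected members of each list by size of difference at Mat, all type I keratins, fibrinogen chains and the receptor, and Med1; other list members were named for their role or for having no detection. Alternatives were the deposited normalized values, no background correction, a common median, an offset of 50, the mean of probes, a detection p under 0.05 and a fold of at least 2, and for the fit no filter, the deposited values, no background correction and no stage term. None was added after the data were seen.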

Additional observations from a re-analysis of the deposited data

Results flagged for a closer look

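Gal and Krt16 differed between the genotypes in opposite directions at different stages, and these differences between stages were not tested. For Gal the difference (KO minus CON) was 0.82 at CL and -3.97 at Mat, 4.80 apart on the log2 scale. Gal lay close to the lowest detected value in CON CL (0.42 above it) and in KO Mat (0.08 above it). The deposited normalized intensity of Gal at CL was 299.5 in KO and 224.3 in CON, under 1.5-fold. Its higher call at CL therefore depends on the background correction. For Krt16 it was at least 2.74 at CL and -1.30 at Mat, at least 4.04 apart, and at least 3.07 at Sec, at least 4.37 apart from Mat, since CON was below detection at CL and Sec.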

How the results depend on the processing

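The direction of the 3 members at Sec and Mat held under each alternative tried. With the deposited normalized values the log2 difference at Mat (KO minus CON) was -4.02 for Krt42, -3.59 for Pmch and -3.06 for Fgg, and quantile normalization without background correction gave the same -4.02, -3.59 and -3.06. Both of these settings leave the background in the intensity, which shortens differences of dim probes by construction. With both, Sec minus CL was -0.51 for Fgg in KO, 0.56 for Krt42 in CON and 2.71 for Pmch in CON, and Mat minus Sec was 0.70 for Krt42 in KO and 4.13 for Krt42 in CON, so that the first 2 no longer reached 1.5-fold. Krt42 kept rank 1 at Mat, with Pmch at 2 to 3. Fgg had rank 3 with the mean of probes and rank 4 under the other alternatives that change the values or the detection limit. The count of lower genes at CL was 35 with the deposited values and without background correction, 90 with an offset of 50 and 15 with a fold of at least 2, and of higher genes 47 and 47, 94 and 31. At Sec 722 genes were lower with the deposited values, 724 without background correction and 474 with a fold of at least 2, which left 580 higher. At Mat the counts were 926, 924 and 586 lower, and 679 higher with a fold of at least 2. The fit over CL and Sec called 0 genes in limma under its 4 alternatives, with 59 to 409 lower genes at an unadjusted p under 0.05. For the gene lists at Mat, the stage for which these alternatives were run, 238 counts under alternatives stayed within 1.5 times the reported count and 26 did not. Without background correction the lower counts of coagulation genes, neuron, platelet, macrophage and endothelial markers came to 2, 0, 0, 0 and 4. No paired analysis was possible because each genotype and stage had 1 array. Leaving out a stage leaves no residual degrees of freedom, so it gives the single-stage values already shown.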
